A study of Mus musculus with 15 samples.

Results

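The 10 serotonin receptor genes Htr1a, Htr1b, Htr1f, Htr2a, Htr2c, Htr3a, Htr4, Htr5a, Htr6 and Htr7 were followed by symbol through single-cell RNA-Seq of the mouse prefrontal cortex (PFC), out of 26145 genes in the count tables. The data came from 15 libraries of male C57BL/6N mice. Of these, 12 were from adult mice labelled 8 to 10 weeks (P60) that had self-administered cocaine or saline through an intravenous line, and 3 were from mice of 3 weeks (P21). By the study's account the line was placed at P60, before self-administration and withdrawal, so P60 is here the name of the adult group. The P60 libraries formed 6 groups of 2, cocaine and saline at each of 3 Periods, which were maintenance, 48 h of withdrawal and 15 days of withdrawal, and each P60 library pooled 2 mice. For the 3 P21 libraries the study's methods give 4 mice in all and, for each biological replicate, a pool of 2 mice, so P21 libraries may share animals. The labels give no treatment for them.

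Serotonin reaches the PFC from the raphe nuclei of the brainstem and acts there on several receptor families. Receptors of the Htr1 and Htr5 families couple to Gi/o proteins and dampen activity, those of the Htr2 family couple to Gq and raise intracellular calcium, and Htr4, Htr6 and Htr7 couple to Gs and raise cyclic AMP. Htr3a encodes a subunit of the sole family of serotonin-gated ion channels, a known feature of a class of cortical interneurons, and Htr1a and Htr2a are long known as the main inhibitory and excitatory serotonin receptors of cortical pyramidal neurons.

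The assay counted unique molecular identifiers (UMIs), each marking 1 captured RNA molecule, near the 3′ end of the transcript, so the annotated end of each receptor gene bears on what could be counted. On the mm9 build, 9 of the genes lay at these places in the GENCODE annotation. Htr6 was at chr4:138617023-138631485 on the minus strand, Htr5a at chr5:28168487-28181626 on the plus strand, Htr3a at chr9:48707319-48719204 on the minus strand and Htr1b at chr9:81524950-81526222 on the minus strand. Htr1a was at chr13:106233773-106238213 on the plus strand, Htr2a at chr14:75040647-75106666 on the plus strand and Htr1f at chr16:64924555-65105610 on the minus strand. Htr7 was at chr19:36033224-36131997 on the minus strand, and Htr2c was at chrX:143397056-143631820 on the plus strand.

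Below are the last 30 bases of the annotated transcript, all in the 3′ UTR, of 6 receptor genes on which the results turn, read 5′ to 3′. Capitals mark the polyadenylation hexamer, AATAAA or ATTAAA, that lay nearest the end, where the window held one. An earlier copy, as in Htr2c, is left in lower case.
Htr1f: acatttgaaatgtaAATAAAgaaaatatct
Htr2c: cttaatttattaaaatttATTAAAcgatga
Htr3a: gcaggggatAATAAAatgctatgatatctt
Htr7: tgtAATAAAgtaacttaagtaattgttttt
Htr2a: tattgctaatacaattcattgaaatacttg
Htr1b: tcgcctaagcgacctttggggaccaagttg

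Of the 10 genes, 5 held a hexamer on the transcribed strand in this window (Htr1f, Htr2c, Htr3a, Htr4 and Htr7), against 58.2% of 22380 protein-coding genes, so the receptors were not set apart by it. The annotated 3′ UTR ran from 49 bases in Htr1b and 312 in Htr6 to 3278 in Htr4 and 4000 in Htr5a, around a median of 608 over all protein-coding genes. The absence of these letters says only that they were not in the window. Because the share of molecules caught near an annotated end can differ from gene to gene, levels were compared between cells, ages and treatments for 1 gene at a time and never between genes.

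In all, 24822 P60 cells and 10538 P21 cells carried the authors' labels, and the libraries held 8375172 to 42892922 UMIs. Excitatory neurons numbered 14443 at P60 and 5934 at P21, and inhibitory neurons 1191 and 962. Excitatory neurons expressed Slc17a7 at 409.9 ± 52.4 and Gad1 at 1.10 ± 0.81 CPM (UMIs of a gene scaled to 1000000 UMIs of the library's cells of that type), and inhibitory neurons Gad1 at 1620 ± 321 CPM (SD, n = 12 libraries). A tissue label named the nucleus accumbens while titles and sources named the PFC. The striatal markers Drd2 and Adora2a gave 22 and 13 UMIs in the P60 inhibitory neurons, 2.30 ± 2.39 and 2.10 ± 2.17 CPM. P21 neurons were sequenced less deeply per cell, with median UMIs of 7345 to 11457 in excitatory neurons against 11810 to 16487 at P60. Pairs of libraries shared at most 27 cell barcodes.

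At P60 the receptors were found mainly in neurons. A UMI of at least 1 of the 10 genes was present in 36.4% of excitatory and 46.9% of inhibitory neurons, and in 1.43% of endothelial cells, which served as the background from free RNA. In astrocytes the share was 3.81% and in oligodendrocyte precursors 3.91%, above the endothelial one. Median UMIs per cell were 13620, 8038 and 4516 in these classes, and after each cell had been sampled down to 2000 UMIs these became 7.51%, 24.3% and 0.421%, beside 1.74% in astrocytes and 1.04% in oligodendrocyte precursors. At P21, 26.8% of excitatory neurons had such a UMI at a median of 9233 UMIs per cell, and 7.69% of those sampled down. In inhibitory neurons at P21 the shares were 34.4%, at a median of 6812 UMIs, and 16.9% sampled down, the latter below the 24.3% at P60. The P60 shares pool cocaine and saline mice, and the make-up by cluster differed between the ages, as given below. Levels by class and cluster below are descriptions, with no test, since the cells had been clustered on their expression. A lower level in a class can be fewer cells that express a gene or less RNA per cell, and these cannot be told apart from sums over cells.

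**Figure D1:**
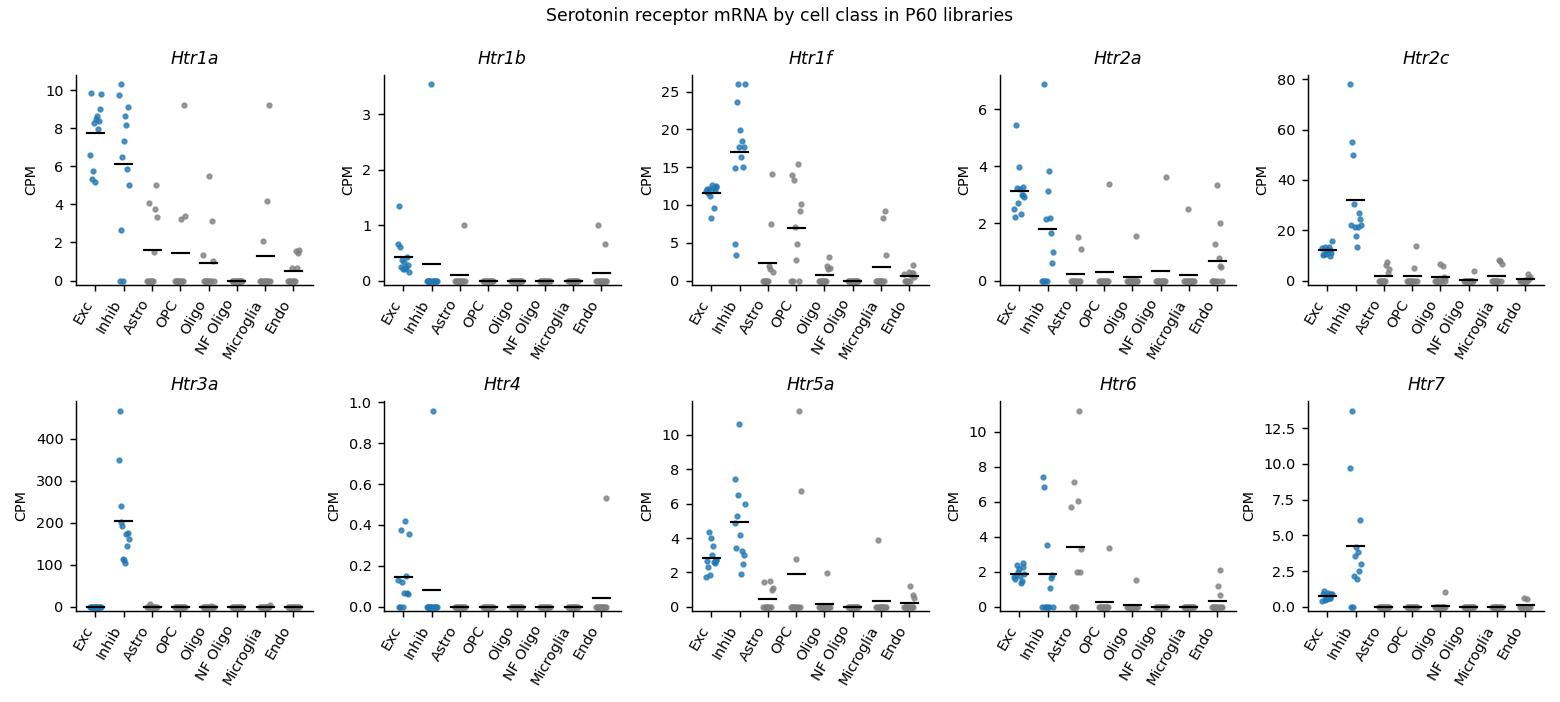
Level of each receptor gene in CPM (linear axes that differ between panels) by cell class, with 1 point for each P60 library holding at least 10 cells of the class and a bar at the mean. Htr3a points lie between 105.4 and 467.3 CPM in inhibitory neurons and near 0 elsewhere, and most non-neuronal points of all 10 genes lie at or near 0.

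Among the Gi/o-coupled receptors, Htr1a stood at 7.76 ± 1.66 CPM in excitatory neurons, ranging from 5.16 to 9.84 around a median of 8.31, and at 6.10 ± 3.57 in inhibitory neurons, ranging from 0 to 10.3 (SD, n = 12). The excitatory value was the higher in 8 of 12 libraries and the difference lay within the spread. Htr1f, a receptor that responds to the triptans used against migraine, stood at 11.5 ± 1.31 CPM in excitatory and 17.0 ± 7.11 in inhibitory neurons, the inhibitory value being higher in 10 of 12 libraries. Outside neurons Htr1f stood at 6.95 ± 5.84 CPM in oligodendrocyte precursors (n = 11), a value that rested on 17 UMIs. Htr5a had the same order of means as Htr1f, with 4.92 ± 2.45 CPM in inhibitory neurons, from 37 UMIs, and 2.83 ± 0.787 in excitatory neurons. For both Htr1f and Htr5a the difference between the neuron classes lay within the SD of inhibitory neurons. Htr1b, known for sitting on axon terminals where it curbs release, was near the limit of detection, with 63 UMIs in all P60 excitatory neurons, 0.422 ± 0.329 CPM, and 1 UMI in inhibitory neurons.

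Of the Gq-coupled receptors, Htr2a had its higher mean in excitatory neurons and Htr2c in inhibitory neurons. Htr2a stood at 3.15 ± 0.861 CPM in excitatory neurons, ranging from 2.24 to 5.43, against 1.79 ± 2.07 in inhibitory neurons, where the value came from 18 UMIs. The excitatory value was the higher in 10 of 12 libraries, but the difference between the means lay within the SD of inhibitory neurons. Htr2c stood at 31.8 ± 19.1 CPM in inhibitory neurons, ranging from 13.4 to 78.0, against 12.0 ± 1.71 in excitatory neurons, ranging from 9.56 to 15.6, and was higher in inhibitory neurons in 11 of 12 libraries.

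Htr3a, the ion channel subunit, differed sharply between the neuron classes. It stood at 203.3 ± 106.9 CPM in inhibitory neurons, from 105.4 to 467.3 around a median of 174.2, and at 0.133 ± 0.115 CPM in excitatory neurons, with no overlap. A Htr3a UMI was found in 25.5% of inhibitory neurons (304 of 1191 cells, exact 95% interval 23.1% to 28.1%), in 0.235% of excitatory neurons and in 0.0561% of endothelial cells.

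The Gs-coupled receptors were seen at few UMIs. Htr7 stood at 4.22 ± 3.99 CPM in inhibitory neurons, from 37 UMIs, and at 0.740 ± 0.224 CPM in excitatory neurons, from 142 UMIs. The difference lay within the SD of inhibitory neurons. Htr6 stood at 1.90 ± 0.371 CPM in excitatory neurons and at 1.87 ± 2.70 in inhibitory neurons. The mean of Htr6 in astrocytes was 3.40 ± 3.71 CPM (n = 11), but it rested on 16 UMIs and exceeded the excitatory value in 6 of 11 libraries. Htr4, at chr18:62483858-62627456 on the plus strand, gave 28 UMIs in P60 excitatory neurons, 0.146 ± 0.152 CPM, and 0.194% of those cells had a UMI against 0.0281% of endothelial cells. Counting intervals and limits cover counting error only.

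Within the neurons, the authors' 38 L2_clusters divided the receptors further, and 34 of them had at least 10 cells in at least 2 P60 libraries. Htr2c peaked in Exc_21, a cluster marked by Tshz2 (2097 ± 185 CPM), Trhr (77.2 ± 16.04) and Slc17a8 (47.3 ± 16.03), genes of near-projecting neurons of deep layer 5. There it reached 143.5 ± 30.6 CPM (SD, n = 12), from 99.6 to 197.8, and 57.6% of the cells had a Htr2c UMI (447 of 776, exact 95% interval 54.0% to 61.1%). Of the 2263 Htr2c UMIs in excitatory neurons, 836 came from this cluster. The next excitatory clusters were Exc_23 at 40.3 ± 19.6 CPM and Exc_16 at 28.2 ± 7.55 CPM, whereas Exc_18, Exc_19 and Exc_20 had 0, 0.352 and 1.03 CPM.

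Htr1f was highest in the last 3 of these clusters, where Htr2c was near 0. It stood at 46.2 ± 16.3 CPM in Exc_19 (n = 12), 42.5 ± 16.7 in Exc_18 (n = 7) and 38.0 ± 12.9 in Exc_20 (n = 8), neighbours that did not differ beyond their spread. All 3 clusters carried the layer 6 markers Foxp2 (119.2 to 172.1 CPM), Syt6 (75.3 to 112.2 CPM) and Tle4 (144.5 to 204.9 CPM). In clusters Exc_1 to Exc_5 the Htr1f level was between 0 and 0.857 CPM. Htr2a was at 0 in Exc_18 and Exc_20, and at 0.0359 and 0.0772 CPM in Exc_19 and Exc_21, from 1 UMI each. It was highest in Exc_24 at 7.83 ± 4.88 CPM (n = 11), followed by Exc_8 at 6.70 ± 5.15, Exc_16 at 6.15 ± 4.65 and Exc_10 at 5.65 ± 3.80, which did not differ beyond their spread.

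Htr1a was spread over many clusters. Its means ran from 23.0 ± 17.4 CPM in Inhib_2 (n = 6, 22 UMIs), a cluster rich in Sst (23274 ± 5715 CPM), through 16.9 ± 10.9 in Exc_18, 16.5 ± 9.62 in Exc_11 and 15.9 ± 7.02 in Exc_22, none of which differed from its neighbour beyond the spread. Among excitatory clusters Htr6 was highest in Exc_13 at 5.22 ± 3.53 and Exc_12 at 4.79 ± 2.28 CPM (n = 12 each). The few Htr1b UMIs gave their highest means in Exc_4, at 2.12 ± 2.34 CPM from 16 UMIs, and Exc_3, at 1.68 ± 3.52 CPM from 6 UMIs. The top means of Htr5a rested on few UMIs, at 10.3 CPM in Inhib_8 from 4 UMIs and 9.29 in Inhib_2 from 6 UMIs, so no order could be read among its clusters. Htr4 had 14 of its 28 excitatory UMIs in Exc_21, at 2.01 ± 2.70 CPM, while its mean of 2.29 CPM in Inhib_9 came from 1 UMI.

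**Figure D2:**
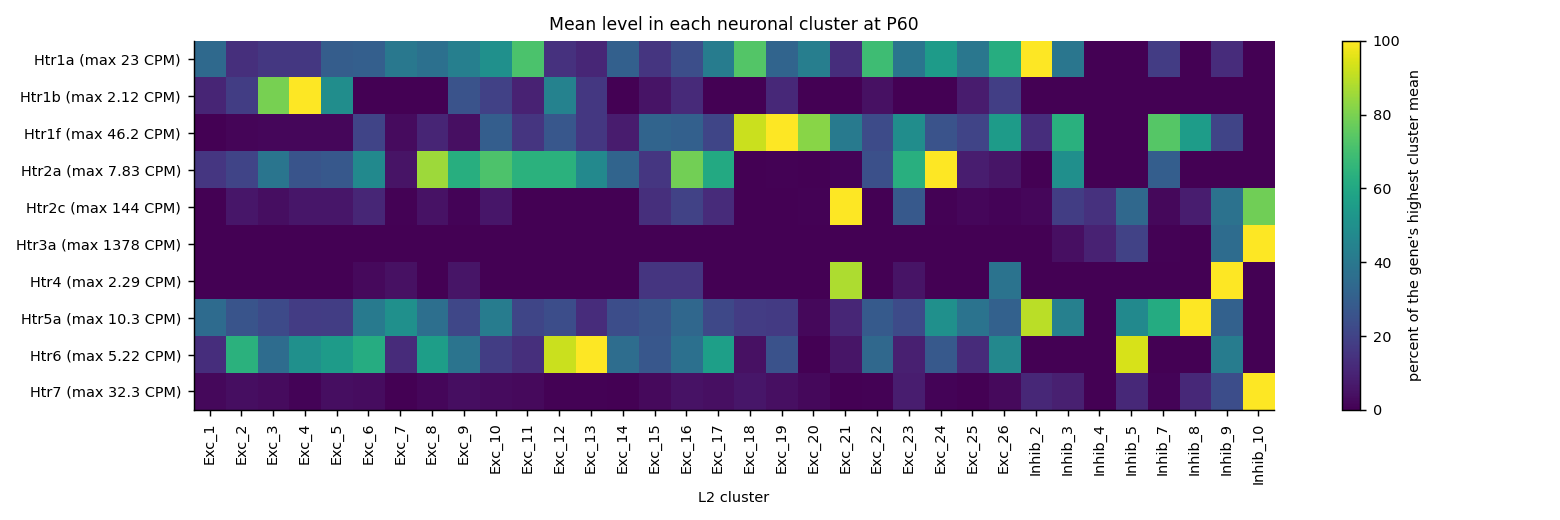
Mean P60 level of each receptor gene in the 34 neuronal L2 clusters with at least 10 cells in 2 or more libraries, as a percent of the highest cluster mean of that gene, which is given in CPM beside its name. Htr2c is brightest in Exc_21, Htr1f in Exc_18, Exc_19 and Exc_20, Htr3a and Htr7 in Inhib_10, and the brightest squares of Htr4 and Htr5a rest on 1 and 4 UMIs.

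Among the inhibitory clusters with 10 cells in at least 2 libraries, Htr3a fell in steps. It stood at 1378 ± 286 CPM in Inhib_10 (n = 2), 485.2 ± 103.1 in Inhib_9 (n = 6), 271.2 ± 116.0 in Inhib_5 (n = 3), 133.9 ± 63.3 in Inhib_4 (n = 2), 56.5 ± 39.1 in Inhib_3 (n = 4) and 5.85 ± 3.62 in Inhib_7 (n = 9). Each cluster was above the next in every library with 10 cells of both, and the means differed by more than the larger SD of the pair. The steps rest on few libraries, and the ranges over libraries overlapped between Inhib_9 (294.7 to 587.9 CPM) and Inhib_5 (189.3 to 403.9) and between Inhib_4 (89.2 to 178.7) and Inhib_3 (20.6 to 111.4). With all cells pooled, Inhib_5 and Inhib_4 stood close together, at 222.3 and 208.0 CPM. Inhib_11, with 10 cells in 1 library alone, stood at 601.7 CPM with all its 47 cells pooled, from 296 of the 1563 Htr3a UMIs of inhibitory neurons, between Inhib_10 and Inhib_9. Inhib_9 and Inhib_4 expressed the peptide gene Vip at 17232 ± 5389 and 19115 ± 3786 CPM, and Inhib_10 expressed Vip at 5974 ± 1697 together with Cck at 5380 ± 5050 and Cnr1 at 2701 ± 166 CPM. In Inhib_10, 96.8% of cells had a Htr3a UMI (60 of 62), and in Inhib_9 62.1% (90 of 145). The largest share of Inhib_3, 58 of 135 cells (43.0%), came from 1 library, and without this cluster the Htr3a level of inhibitory neurons was 216.6 ± 118.8 CPM.

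Among the same inhibitory clusters, Htr2c and Htr7 also had their highest means in Inhib_10 and Inhib_9. In Inhib_10 Htr2c stood at 112.6 ± 61.4 CPM and Htr7 at 32.3 ± 13.1 CPM (n = 2, 47 and 9 UMIs), and in Inhib_9 they stood at 54.3 ± 34.8 and 7.70 ± 6.93 CPM (n = 6). In Inhib_4, where Htr3a was at 133.9 CPM, Htr7 had 0 UMIs in 74 cells, where 3 UMIs would give 7.43 CPM. In Inhib_2, which had no Htr3a UMI, Htr7 stood at 3.64 ± 4.05 CPM (n = 6, 3 UMIs). That value lies below the limit in Inhib_4, so no order of Htr7 could be read between these clusters. Htr1f stood at 34.0 ± 13.6 CPM (n = 9) in Inhib_7, the cluster with the most Npy (30757 ± 6938 CPM) and little Htr3a.

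Receptors were also counted together in single cells, first at P60. Of 158 inhibitory neurons with a Htr2c UMI, 104 (65.8%) also had a Htr3a UMI, against 40.3 cells from the product of the separate shares. Of 36 inhibitory neurons with Htr7, 20 had Htr3a, against 9.19 from the product. Htr1f and Htr3a met in 10 cells against 35.5 from the product. In excitatory neurons, Htr2c was found in 14 of the 28 cells with Htr4, against 3.00, and in 32 of the 139 with Htr7, against 14.9. The pair met most often was Htr1f and Htr2c, in 270 cells against 195.5, although Htr2c was near 0 in the clusters where Htr1f was highest. Htr1a met Htr1f in 218 cells against 172.9, Htr2a, whose action opposes its own in pyramidal neurons, in 62 against 53.0, and Htr2c in 111 against 146.7. At P21, Htr2c and Htr3a met in 52 inhibitory neurons against 17.6. In excitatory neurons at P21, where depth per cell was lower, Htr2c met Htr7 in 4 cells against 5.04, Htr4 in 4 against 0.749 and Htr1f in 26 against 36.0. With P60 cells sampled down to 2000 UMIs, Htr2c and Htr3a met in 26 inhibitory neurons against 9.51. In excitatory neurons so sampled, Htr2c met Htr1f in 10 cells against 7.36, Htr7 in 2 and Htr4 in 0, too few to read. At P21 the sampled excitatory neurons gave Htr2c with Htr1f in 4 cells against 3.01, with Htr7 in 0 and with Htr4 in 1. No difference between the ages could be read from these. The product takes no account of cluster or, without sampling down, of depth per cell, and the part of doublets in these counts was not tested.

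Over the 34 clusters, the genes whose log2(CPM + 1) followed Htr3a most closely were Vip (Pearson r = 0.955), Cxcl14 (0.952) and Pde5a (0.929), among 9224 candidates. Closest to Htr1a was P2rx4 (0.910), to Htr1f the calmodulin-binding Pcp4 (0.821), to Htr2a 1810027O10Rik (0.827) and the calcium sensor Hpca (0.802), and to Htr7 Tardbp (0.808). For Htr2c the closest gene was Tmbim6 (0.764) and for Htr6 Rgs2 (0.723). Htr1b had Cyld (0.779), Htr4 had Lect1 (0.781) and Htr5a had Gltp (0.786), each resting on the small counts given above. These are correlations over clusters that share libraries and depth, given as descriptions.

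The effect of age was tested between the 6 saline P60 libraries and the 3 P21 libraries by edgeR's quasi-likelihood test on UMIs summed per library, with a call at a Benjamini-Hochberg adjusted p below 0.05 over all genes and a fold above 1.5. In excitatory neurons Htr2a was higher at P60, and it was the single call among the 7 receptors with enough counts to test. All genes tested numbered 13251, of which 19.3% were called. The tests treated the P21 libraries as independent, although they may share animals. Age and any difference in handling between the P21 and P60 libraries cannot be told apart, and the P60 saline mice had undergone surgery and lever training. The lower depth of P21 cells given above moves with age, and its part was not tested.

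Htr2a stood in the P60 saline libraries at 2.24, 5.43, 2.71, 3.22, 2.98 and 2.93 CPM and in the P21 libraries at 1.60, 1.87 and 1.38 CPM. All P60 values lay above all P21 values. The fold was 2.11 (95% interval 1.41 to 3.16), with a log2 fold change of 1.08 ± 0.27 (SE) and an adjusted p of 0.00684 (edgeR). It was called with each library left out in turn, at log2 fold changes from 0.87 to 1.17 and adjusted p from 0.00569 to 0.0317. By cluster, the pooled Htr2a level was the higher at P60 in 13 of the 26 excitatory clusters, the lower in 11 and without a UMI at either age in 2, and many of these clusters rest on few UMIs. Of the 14 with at least 10 UMIs over both ages it was higher at P60 in 10, of which 2 had no P21 UMI. A cluster could pass this limit through its P60 UMIs alone, so the 10 of 14 is no measure of direction. Htr2a stood at 9.03 against 5.24 CPM in Exc_24 (29 and 11 UMIs) and 6.10 against 3.66 in Exc_16 (36 and 7 UMIs), but 4.85 against 6.21 in Exc_17 (14 and 5 UMIs). In Exc_10 it was 7.81 CPM from 40 UMIs against 1 UMI in 93 P21 cells. At both ages Exc_18 and Exc_21 had no Htr2a UMI in these libraries.

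**Figure D3:**
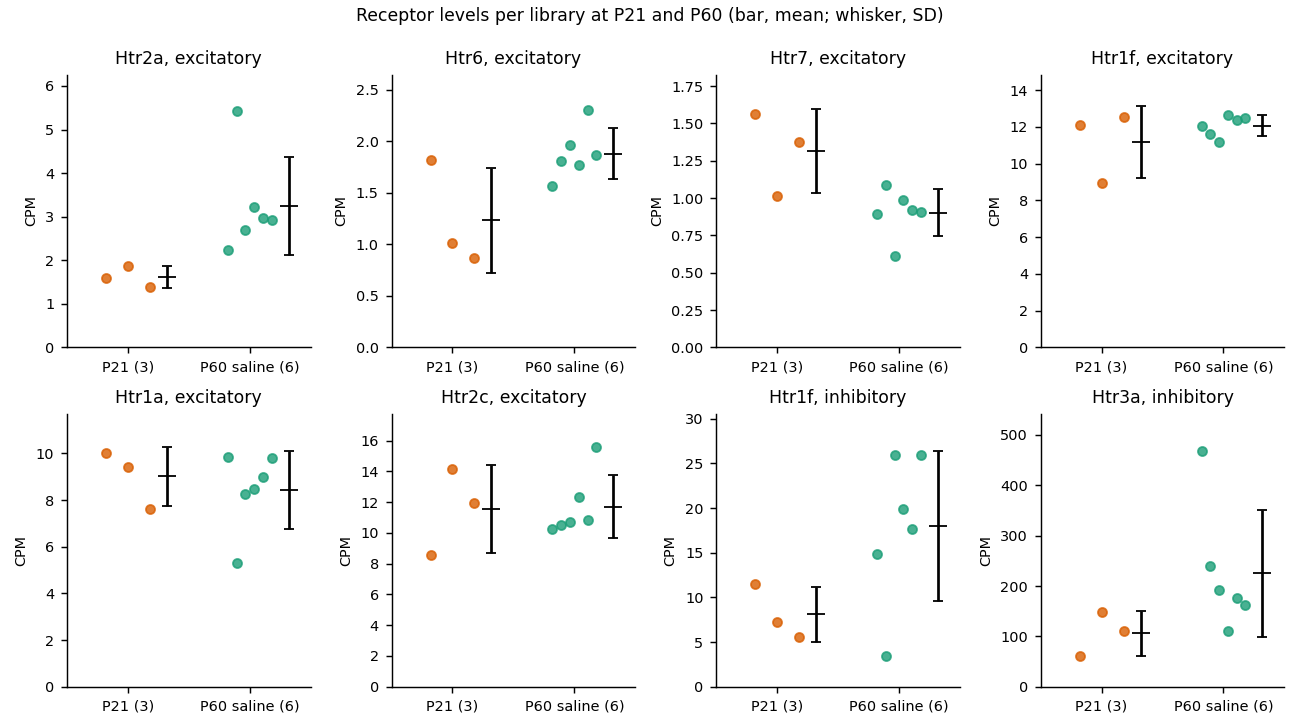
CPM per library at P21 (3 libraries, orange) and in P60 saline mice (6 libraries, green) for 6 receptor genes in excitatory and 2 in inhibitory neurons, with mean and SD in black. Htr2a points do not overlap between ages, those of Htr1f in inhibitory neurons overlap, and 1 P60 library sets the top of Htr2a in excitatory and of Htr3a in inhibitory neurons.

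In excitatory neurons Htr6 lay near the threshold, and Htr7 passed neither the limit on adjusted p nor that on the fold. Htr6 stood at 1.88 ± 0.25 CPM at P60 and at 1.82, 1.01 and 0.869 CPM in the P21 libraries, a fold of 1.54 (95% interval 1.05 to 2.27, adjusted p = 0.0675, edgeR). Without P21 replicate 1 it was called, at a log2 fold change of 1.10 and an adjusted p of 0.0066, beside 21.1% of all genes. Htr7 had the lower mean at P60, with 0.902 CPM against 1.56, 1.01 and 1.38 CPM at P21, and the groups overlapped. Its fold was 0.706 (95% interval 0.487 to 1.03, adjusted p = 0.125, edgeR). With all 12 P60 libraries in the place of the saline ones both were called, at adjusted p of 0.0393 for Htr6 and 0.0143 for Htr7, beside 18.2% of all genes, a comparison in which age and cocaine are mixed.

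For Htr1a, Htr2c and Htr5a the difference was not detectable. Htr1a stood at 8.44 CPM at P60 and 9.02 at P21, a fold of 0.975 (0.771 to 1.23), Htr2c at 11.7 and 11.6, a fold of 1.08 (0.843 to 1.39), and Htr5a at 2.55 and 3.27, a fold of 0.832 (0.637 to 1.09). Htr1b, Htr3a and Htr4 did not pass the filter on low counts. Htr1b stood at 0.512 CPM at P60 and at 0.0743, 0.156 and 0.145 CPM in the P21 libraries, which hold 6 UMIs in all.

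Htr1f in excitatory neurons gave 12.1 CPM at P60 and 11.2 at P21, a fold of 1.12 (95% interval 0.940 to 1.34, adjusted p = 0.282, edgeR), but its clusters were not equally common at both ages. At P21 the Htr1f-rich clusters Exc_18, Exc_19 and Exc_20 made up 6.09%, 7.71% and 8.37% of excitatory neurons. At P60 they made up 1.44%, 6.08% and 1.19%. The study assigned P21 cells to the adult clusters by correlation, so shares and levels by cluster at P21 depend on that assignment. Its part was not tested. Cluster by cluster, the pooled Htr1f level was higher at P60 in 23 of the 26 clusters, some of which rest on few UMIs, among them 46.3 against 29.6 CPM in Exc_18, 21.2 against 12.2 in Exc_21 and 16.9 against 4.18 in Exc_16. The exceptions were Exc_7, at 1.14 against 6.22 CPM, Exc_8, at 4.42 against 5.00, and Exc_1, with 0 UMIs at P60 and 2 at P21. All clusters were cut from the same libraries, so this count is a description and not a test. Where Htr1f could be tested within a cluster, Exc_16 was called, as given below. Exc_18 (adjusted p = 0.382) and Exc_21 (adjusted p = 0.117, edgeR) were not called, nor were Exc_19, Exc_20, Exc_25 and Exc_26. Weighted to 1 make-up by cluster, Htr1f stood at 16.3 ± 4.66 CPM at P60 and 9.98 ± 1.54 at P21, a ratio of 1.64 (exact two-sided permutation p = 0.0238 over 84 splits, the smallest the design allows).

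This weighting was added after the data were seen and set no minimum of cells, so a cluster's level in a library could rest on few cells. At its lowest, Exc_20 made up 0.158% of the excitatory neurons of a P60 saline library, and 1 saline library held 19 inhibitory neurons in all. The weighting was computed for all 10 genes in both neuron classes, giving 20 values with unadjusted p. Since the smallest p the test allows was 0.0238, the exact test could not separate these values further, and they are given as descriptions. Htr2a had a ratio of 1.81 and Htr7 one of 0.697, both at that smallest p. The ratio of Htr1b was 3.97, but it rests on the 6 P21 UMIs given above. By the same exact test Htr6 gave 1.40 (p = 0.167), Htr5a 0.782 (p = 0.167), Htr1a 1.01 (p = 0.905) and Htr2c 0.989 (p = 0.881).

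**Figure D4:**
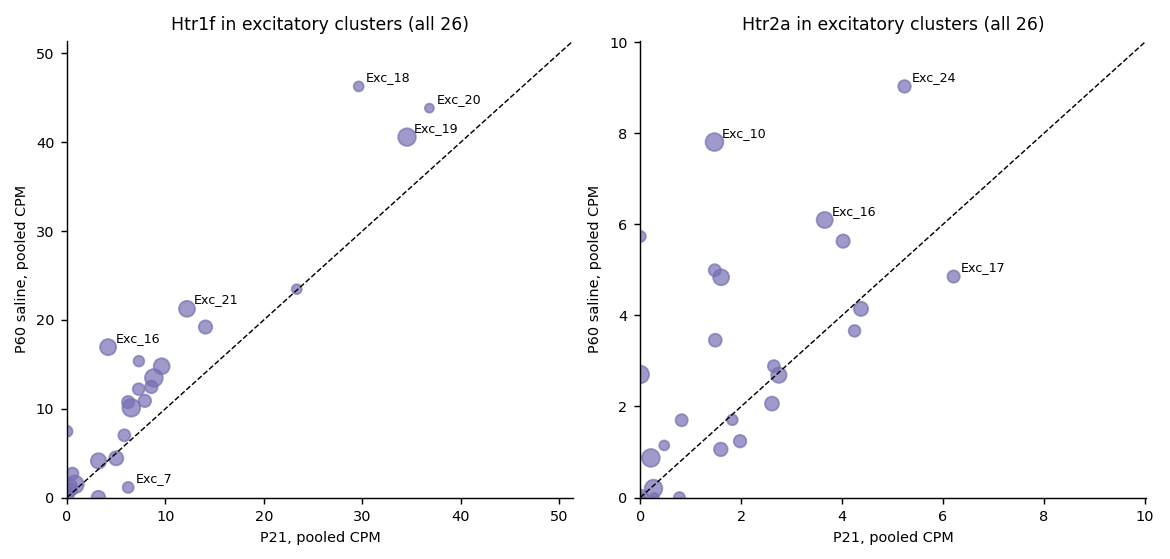
Pooled level in the P60 saline libraries against that in the P21 libraries (CPM, linear axes, dashed line at equality) for Htr1f and Htr2a in all 26 excitatory L2 clusters, with point area growing with the number of P60 saline cells. For Htr1f 23 clusters lie above the line and 3 below, and for Htr2a 13 lie above and 11 below, with 2 at 0, and points near the origin rest on few UMIs.

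Of the 16 tests of receptors within single neuronal clusters, Htr1f in Exc_16 was called, where 10.6% of all gene tests over the neuronal clusters and 10.9% of those in Exc_16 were. It stood at 5.01, 19.6, 6.52, 18.4, 20.4 and 15.1 CPM in P60 saline libraries and at 4.57, 1.95 and 5.69 CPM at P21, with an overlap at the lowest P60 value. The log2 fold change was 1.95 ± 0.49 (SE) with an adjusted p of 0.00796 (edgeR). It was called in each of the 7 of 9 refits without 1 library in which it could be tested, at adjusted p of 0.0369 or less. A gene could pass the filter on low counts through its P60 libraries alone, where Htr1f was high here. The refits share libraries and are no independent support. Htr2c in Exc_21 stood at 148.1 CPM at P60 and at 130.1, 181.6 and 143.7 CPM at P21, a log2 fold change of -0.01 ± 0.16. Htr1a in Exc_18 stood at a mean of 25.8 CPM at P60 and 15.0 at P21 without overlap, but did not pass the correction (adjusted p = 0.177, edgeR).

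In inhibitory neurons 3 receptors could be tested, and Htr1f was called as higher at P60, where 14.0% of 8907 genes were called. It stood at 14.8, 3.43, 25.9, 19.9, 17.7 and 25.95 CPM in P60 saline libraries and at 11.6, 7.26 and 5.53 CPM at P21. The groups overlapped through the lowest P60 library. The fold was 2.33 (95% interval 1.42 to 3.82, adjusted p = 0.0184, edgeR), and the call was lost without P21 replicate 2 (adjusted p = 0.0646) or P21 replicate 3 (adjusted p = 0.096), where 9.83% and 8.31% of all genes were called. The make-up of the class by the assigned clusters also differed between the ages. The Htr1f-rich cluster Inhib_7 made up 8.25% of inhibitory neurons at P21 and 31.5% at P60, and Inhib_2 made up 35.2% and 7.60%. Within Inhib_7 Htr1f stood at a mean of 32.8 CPM at P60 and 33.9 at P21, where single libraries ran from 9.17 to 77.4 CPM. The log2 fold change there was 0.36 ± 0.56 (SE), too imprecise to read a direction. Weighted to 1 make-up the ratio of Htr1f was 1.34 (exact permutation p = 0.262). The part of make-up in the call was not tested.

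Htr3a in inhibitory neurons stood at 467.3, 240.3, 192.4, 111.2, 175.9 and 162.7 CPM in P60 saline libraries and at 60.1, 149.0 and 110.7 CPM at P21. The groups overlapped, and the fold was 1.88 (95% interval 0.927 to 3.82, adjusted p = 0.194, edgeR). Weighted to 1 make-up the ratio was 1.32 (exact permutation p = 0.214), and in Inhib_9 itself Htr3a stood at 554.9 CPM at P60 and 554.3 at P21. Htr2c in inhibitory neurons stood at 28.6 and 27.2 CPM, a fold of 0.960 (0.631 to 1.46).

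Cocaine was compared with saline at each Period and over the mean of the 3 Periods in 1 fit over the 12 P60 libraries. None of the receptors was called in excitatory neurons (7 tested) or inhibitory neurons (3 tested) at any Period. In excitatory neurons the share of all genes called was 0% at maintenance, 0% at 48 h, 0.704% at 15 days and 0% for the mean, and in inhibitory neurons it was 0%, 0.0115%, 0.839% and 0%. DESeq2 called none of the receptors either. At an unadjusted p below 0.05, 1 of these 40 tests passed, against 6.09% of the tests of all genes.

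That test was Htr7 in excitatory neurons over the mean of the Periods, where 8.53% of all genes passed at the same threshold. In cocaine libraries Htr7 stood at 0.395 and 0.498 CPM at maintenance, 0.537 and 0.843 at 48 h, and 0.599 and 0.596 at 15 days. In saline libraries it stood at 0.894 and 1.09, 0.615 and 0.984, and 0.922 and 0.910 CPM. The cocaine value lay below both saline values in every cocaine library but 1 of the 48 h Period, where the groups overlapped. The fold was 0.627 (95% interval 0.420 to 0.936), with an unadjusted p of 0.0254 and an adjusted p of 0.54 (edgeR), so it failed the correction. The same saline libraries entered the comparison with P21.

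For the other receptors every interval of the mean effect included a fold of 1, and 3 of the 9, those of Htr5a in excitatory and of Htr3a and Htr1f in inhibitory neurons, also reached past a 1.5-fold change. In excitatory neurons the fold was 0.859 (0.698 to 1.06) for Htr1a, 0.912 (0.778 to 1.07) for Htr1f, 1.05 (0.888 to 1.24) for Htr2c and 0.901 (0.673 to 1.21) for Htr2a. It was 1.00 (0.718 to 1.40) for Htr6 and 1.201 (0.894 to 1.61) for Htr5a. In inhibitory neurons it was 0.831 (0.646 to 1.07) for Htr3a, 0.996 (0.745 to 1.33) for Htr2c and 1.14 (0.674 to 1.93) for Htr1f.

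**Figure D5:**
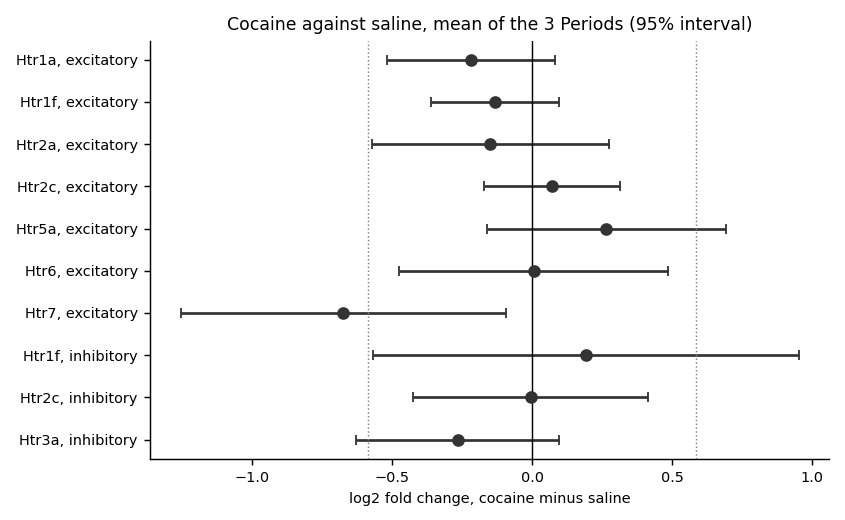
Log2 fold change of cocaine over saline, mean of the 3 Periods, for each receptor gene with enough counts to test in excitatory or inhibitory neurons, with 95% intervals and dotted lines at a fold of 1.5 in either direction. The interval of Htr7 in excitatory neurons, from -1.25 to -0.10, excludes 0 before correction, and all others cross 0.

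At single Periods, with 2 libraries a group, the log2 fold changes of the receptors in excitatory neurons ranged from -1.20 to 0.30 at maintenance, -0.26 to 0.52 at 48 h and -0.57 to 0.12 at 15 days, with standard errors up to 0.59. A test of whether the cocaine effect differed between Periods called none of the 7 receptors in excitatory neurons, where 0% of genes were called, and the lowest unadjusted p was 0.18 for Htr2c. It called none of the 3 in inhibitory neurons, where 0.0690% of genes were called. Htr2c stood at 12.9 and 13.3 CPM in cocaine and 10.3 and 10.5 in saline libraries at maintenance, and at 12.3 and 9.56 in cocaine and 10.8 and 15.6 in saline libraries at 15 days.

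Within L2 clusters, 69 receptor tests over all Periods gave no call, against 0.429% of all gene tests (0.00656% at maintenance, 0.00558% at 48 h, 1.18% at 15 days and 0.0392% for the mean). At an unadjusted p below 0.05 were 2 of the 69, beside 6.12% of the tests of all genes. They were Htr1f in Exc_12 at 15 days, at 3.69 and 9.69 CPM in cocaine and 15.2 and 15.7 CPM in saline libraries (log2 fold change -1.07 ± 0.51, adjusted p = 0.716, edgeR), and Htr2c in Exc_23 over the mean of the Periods (log2 fold change 0.51 ± 0.23, adjusted p = 0.915). In Exc_21, Htr2c stood between 99.6 and 197.8 CPM in cocaine and between 119.3 and 177.3 CPM in saline libraries, so the saline range lay inside the cocaine range.

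The wider serotonin pathway was described with lists of genes. Of 10 genes of serotonin synthesis, transport and breakdown, 5 could be tested for age in excitatory neurons. Maob, a monoamine oxidase, rose to 17.8 CPM at P60 from 9.98 at P21 (log2 fold change 0.95 ± 0.23, adjusted p = 0.0073, edgeR), and the monoamine transporter gene Slc29a4 fell to 0.942 from 4.61 CPM (log2 fold change -2.19 ± 0.25, adjusted p = 5.3e-05). The serotonin transporter Slc6a4 gave 11 UMIs and the synthesis gene Tph2 22 UMIs in P60 excitatory neurons. The breakdown enzyme Maoa and the decarboxylase Ddc were highest in endothelial cells among the classes compared here, at 304.1 ± 48.7 and 111.5 ± 19.99 CPM against 25.1 ± 2.19 and 0.183 ± 0.161 CPM in excitatory neurons. For Ddc, newly formed and mature oligodendrocytes followed closely at 103.6 and 94.98 CPM.

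The counts of called genes on these lists are to be read beside the 19.3% of all genes called in excitatory and the 14.0% in inhibitory neurons. Of the 8 genes of the Gi/o arm, all tested in excitatory neurons, Gnaz was lower at P60 (71.6 against 116.7 CPM, log2 fold change -0.64 ± 0.10), and of the 10 of the Gs arm, Adcy1 was lower (148.3 against 234.2 CPM, -0.60 ± 0.07). None of the 6 tested genes of the Gq arm was called. Of 13 tested receptor partners and regulators, Rgs2, which restrains Gq signaling, rose (0.61 ± 0.10) and Deaf1, a regulator of Htr1a transcription, fell (-0.61 ± 0.09). In inhibitory neurons Gnaz (-0.92 ± 0.16), Prkacb (-0.99 ± 0.17) and Rgs4 (-0.90 ± 0.23) were lower at P60 and Mpdz, a scaffold that binds Htr2c, was higher (1.09 ± 0.22). The median log2 fold change of the tested receptors was 0.12 in excitatory neurons (7 genes), beside -0.0049 over all genes, and 0.91 in inhibitory neurons (3 genes), beside 0.0022. With 3 genes, 0.91 is the value of Htr3a itself, which was not called (adjusted p = 0.194, edgeR) and overlapped between the ages. It is no measure of a shift of the receptors as a set. For cocaine, no tested gene of these lists was called at any Period in either neuron class, beside the shares of all genes called given above. Of the synthesis, transport and breakdown genes 5 of 10 could be tested in excitatory and 1 of 10 in inhibitory neurons.

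The other 4 serotonin receptor genes on the lists were scarce. Htr5b gave 130 UMIs in P60 excitatory neurons, highest in Exc_21 at 3.19 ± 2.96 CPM, Htr1d gave 10 and Htr2b 13. Htr3b, the partner subunit of Htr3a, gave 5 UMIs in inhibitory neurons.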

How the data were processed

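Per the labels, single-cell suspensions of PFC were captured on the 10X Chromium platform. The authors aligned reads to mm9 and deposited UMI counts per gene and cell, with class, L2_clusters, library and treatment of each cell they kept (they used Seurat 2.1.0). Reads were counted with cellranger, whose version is left out because the labels and the study's methods write it differently. Counts were summed per library and cell class or L2 cluster, with the class taken from the cluster (492 cells carried another class). CPM left out 13 mitochondrial and 84 ribosomal protein genes. A library needed 10 cells and a group 2 libraries. edgeR 4.0.16 (TMM, filterByExpr, robust quasi-likelihood, no covariates) gave all tests across genes, after a check on simulated counts with 200 genes changed. Levels weighted to 1 make-up, for which no minimum of cells was set, were compared by exact permutation over libraries, and outlying libraries by Dixon's gap ratio. DESeq2 1.42.0 was an alternative. Doublets were removed by the authors before deposit by a limit on detected genes and by inspection of clusters, and none were called here. Intervals of folds came from the SE and the degrees of freedom of that test. P-values measure the spread between libraries, which pool mice. P21 libraries may share animals, so p-values for age, by edgeR or permutation, may not measure the spread between animals. No paired analysis was possible because the libraries of the compared groups share no origin and the numbers within a group are in order of listing. Other genes were named by rule: up to 3 called genes of each list with the largest rise or fall, and the 3 genes nearest to each receptor over clusters (at least 20 CPM in a cluster), of which the closest are printed. The receptors and all gene lists were chosen with earlier results of these data known. Sequence positions came from the mm9 genome and GENCODE vM1.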

Additional observations from a re-analysis of the deposited data

Results flagged for a closer look

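In 27 groups of 6 libraries (a receptor, neuron class and treatment with at least 20 UMIs), the outermost library was tested for its distance from the rest, and 5 were set apart. For normal values of equal spread, chance sets apart about 1 in 20 groups. The P60 libraries held from 19 to 218 inhibitory neurons, so counting error was unequal and that rate may not hold here. In excitatory neurons, saline maintenance replicate 2 was the lowest of the saline libraries in Htr1a, at 5.31 CPM with the next at 8.24, and the highest in Htr2a, at 5.43 CPM with the next at 3.22. In inhibitory neurons the same library was the highest of the saline libraries in Htr2c, at 54.9 CPM with the next at 30.3, from 16 UMIs. Saline maintenance replicate 1 was the highest in Htr3a in inhibitory neurons, at 467.3 CPM with the next at 240.3, from 63 UMIs in 19 cells. Cocaine 15 days replicate 2 was the lowest of the cocaine libraries in Htr2c in excitatory neurons, at 9.56 CPM with the next at 12.1. The causes were not tested.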

How the results depend on the processing

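The number of receptors called was recomputed with DESeq2, other size factors, no filter on low counts, mitochondrial and ribosomal protein genes kept, the authors' class, and each library left out. For age in excitatory neurons it was 1, but 3 with all 12 P60 libraries (Htr2a, Htr6 and Htr7, beside 18.2% of all genes) and 1 to 2 with a library left out. In inhibitory neurons it was 0 to 1 with a library left out. In clusters it was 2 with at least 30 cells a library (Htr2c in Exc_15 added, beside 9.50% of all gene tests) and 2 with no filter (Htr1a in Exc_14 added, beside 5.47%). For cocaine it was 0 under each of these settings. Shares of cells with any receptor fell to 7.51% and 24.3% when cells were thinned to 2000 UMIs.

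Some log2 fold changes, none of them called, changed sign. Htr2c in inhibitory neurons gave 0.0003 for age and 0.028 for cocaine with DESeq2, and 0.0018 for cocaine with no filter. Weighted to 1 make-up, a choice made after seeing the data, Htr1a gave 0.0088 and Htr2c -0.016 for age in excitatory neurons. With a library left out, age gave -0.070 to 0.29 for Htr2c and -0.14 to 0.058 for Htr1a in excitatory neurons and -0.35 to 0.21 for Htr2c in inhibitory neurons. Cocaine over the mean of the Periods gave -0.024 to 0.45 for Htr5a, -0.28 to 0.17 for Htr2a, -0.014 to 0.17 for Htr2c and -0.14 to 0.13 for Htr6 in excitatory neurons, and -0.16 to 0.34 for Htr2c and -0.41 to 0.52 for Htr1f in inhibitory neurons. The causes were not tested.

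Depth limits Htr1b, Htr4, Htr6 and Htr7, which gave 28 to 369 UMIs in P60 excitatory neurons, and all inhibitory clusters, which held at most 392 P60 cells each.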
